A study of Homo sapiens with 14 samples.

Results

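The genes described are the protein-coding genes of the proteasome family, taken by symbol: every gene of the deposited table of reads whose symbol is PSM, a letter from A to G and a number. The rule found 48 of 28120 genes. Of these, 19 encode the core (PSMA and PSMB), 24 the regulatory particles and activators (PSMC, PSMD and PSME), and 5 the inhibitor PSMF1 and the PSMG assembly factors. Values were not used to choose them. RNA came from PANC-1, an established human pancreatic cancer cell line at passage 3-5, exposed to proanthocyanidins (PA, polymeric plant polyphenols) at 20 µg/ml or to the solvent DMSO. The 14 libraries form 7 groups of 2 replicates. Cells in DMSO were taken at 0, 3, 12 and 24 h, and cells in PA were taken after 3, 12 or 24 h. All groups are the same cell line without a genetic change, and the 0 h group has DMSO libraries only. Replication is called biological by the submitters, but nothing says that the 2 libraries of a group came from separate cultures, so p-values measure the spread between these libraries.

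The proteasome is the protease that degrades most short-lived and damaged proteins marked with ubiquitin. Its barrel-shaped core is built from outer rings of alpha subunits (PSMA) and inner rings of beta subunits (PSMB), of which PSMB5, PSMB6 and PSMB7 carry the cutting sites. PSMB8, PSMB9 and PSMB10 replace those 3 catalytic subunits in the immunoproteasome, which interferon induces in many tissues. A regulatory particle of ATPases (PSMC) and non-ATPases (PSMD) binds ubiquitin chains, removes them and threads the unfolded protein into the core, and the PSME proteins are alternative caps. Most subunits are made in matched amounts, and when proteasome activity is short the transcription factor NRF1 (gene NFE2L1) raises their genes together through antioxidant response elements.

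Each library held 26403984 to 35213154 reads counted in genes, and the members took 0.962% to 1.23% of them. Of the members, 46 passed the filter on low counts and were tested among 15181 genes: 17 core, 24 regulatory and 5 inhibitor or assembly genes. PSMB11, the thymus-specific beta subunit, had 5 reads over all libraries and PSMA8, the testis-specific alpha subunit, had 1, and neither was tested. PSMA6 was not analysed here. Reads labelled PSMA1 stood under 2 gene identifiers that overlap on the same strand, 1 of which held nearly all of them, and 46 tested members are therefore 45 symbols. Of the tested members, 28 overlap another annotated gene and 20 another protein-coding gene, and their reads may be shared with it; PSMD9, PSMF1, PSMG2 and PSME2 are among the 20. Epithelial keratins were abundant in every library (KRT8 2344 to 10620 CPM, KRT18 2039 to 6743 CPM), whereas KRT7 (6.30 to 21.0 CPM) and EPCAM (3.85 to 7.79 CPM) were low. The acinar markers PRSS1, CPA1 and CELA3A reached at most 0.0685 CPM. Of the leukocyte markers PTPRC and CD3E reached at most 0.145 CPM, while ITGAM stood at 0.494 to 1.97 and CD14 at 0.726 to 5.22 CPM. Of the endothelial markers PECAM1, VWF and CDH5 reached at most 0.360 CPM and KDR 1.15 CPM. Of the fibroblast markers COL1A2, DCN, LUM and PDGFRB reached at most 0.222 CPM, while COL1A1 stood at 8.15 to 28.9 CPM. Transcripts of the mitochondrial genome took 4.35% to 10.0% of reads, with the highest shares in the PA 24 h libraries (10.0% and 8.23%), and their part in the results was not tested.

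Promoters of 3 members are printed: the largest called rise (PSME1), the largest called fall (PSMD12) and PSMB3, a beta subunit that rose and was chosen because it holds the same short match to the antioxidant response element as the others. PSMB4 and PSMB5, which also rose at 12 h, hold no such match. Sequences are RefSeq, GRCh38.p14, 250 bases before to 50 after an annotated start, 5′ to 3′ along the gene. Capitals mark the match to TGACNNNGC, searched on both strands. PSME1 is chr14:24135944-24136243 on the plus strand with the match at position -86 from the start, PSMB3 is chr17:38752491-38752790 on the plus strand with the match at -104, and PSMD12 is chr17:67366528-67366827 on the minus strand with the match at -165.
PSME1: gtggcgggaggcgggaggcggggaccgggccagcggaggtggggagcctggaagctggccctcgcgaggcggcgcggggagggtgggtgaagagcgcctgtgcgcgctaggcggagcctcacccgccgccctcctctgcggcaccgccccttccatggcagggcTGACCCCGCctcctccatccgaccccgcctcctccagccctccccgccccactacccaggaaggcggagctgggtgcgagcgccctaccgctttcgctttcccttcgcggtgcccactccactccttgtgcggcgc
PSMB3: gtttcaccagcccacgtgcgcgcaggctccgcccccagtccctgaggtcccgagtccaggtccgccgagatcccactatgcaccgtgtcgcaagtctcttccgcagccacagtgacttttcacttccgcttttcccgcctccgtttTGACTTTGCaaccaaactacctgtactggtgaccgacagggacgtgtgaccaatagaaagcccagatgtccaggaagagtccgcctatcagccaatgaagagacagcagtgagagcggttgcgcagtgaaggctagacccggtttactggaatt
PSMD12: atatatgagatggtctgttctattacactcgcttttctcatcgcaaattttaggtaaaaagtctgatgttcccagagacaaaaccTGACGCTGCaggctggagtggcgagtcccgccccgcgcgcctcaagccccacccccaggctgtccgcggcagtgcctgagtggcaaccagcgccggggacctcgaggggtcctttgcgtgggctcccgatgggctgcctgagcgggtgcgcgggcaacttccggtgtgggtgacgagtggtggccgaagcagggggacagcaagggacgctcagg

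Of 47 member symbols, 41 matched the promoter table; PSMA7, PSMB1, PSMB6, PSMB7, PSMD4 and PSMG3 had no entry. The element TGACNNNGC was found in 15 of 41 members (36.6%), against 4384 of 27305 genes (16.1%) in the whole table, counting a gene once where any of its promoters held it. It stood in 7 of the 15 members that were higher at 12 h, in 4 of the 6 that were lower and in 4 of the 18 that did not pass the test. A match was thus present among rises and falls alike. The GAAA repeat of the interferon-stimulated response element (GAAA, any 2 bases, GAAA, both strands) was found in 7 members (17.1%): PSMA4, PSMB4, PSMB8, PSMB10, PSME1, PSME2 and PSMG4. The share in the whole table was 4.38%. The CCAAT box stood in 20 members (48.8%) and in 39.7% of all genes. A match is a string of letters and was not tested as a binding site.

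Levels between genes were compared per length, as the authors' deposited RPKM. In the DMSO 0 h libraries the median member stood at 52.1 RPKM and the median tested gene at 3.32 RPKM. PSMC4, an ATPase of the regulatory particle, stood at 2097 ± 154 RPKM (SD, n = 2), rank 19 of 15049 genes. The other 5 ATPases lay between 44.3 and 184.7 RPKM with a median of 71.4 RPKM. PSMA7 followed at 272.5 ± 15.8 RPKM and the ubiquitin receptor PSMD4 at 205 ± 8.23 RPKM (SD, n = 2 each). PSMC4 alone therefore supplied 30.8% to 42.2% of all member CPM (counts scaled to the TMM library size), depending on the library. Around it on chromosome 19, 3 of 21 tested genes within 500 kb were among the top 100 genes, namely PSMC4 itself, FBL at 2470 RPKM and SUPT5H at 439 RPKM. What sets the level of PSMC4 was not tested. Without PSMC4, the regulatory members had a median of 63.9 RPKM and the core members 43.5 RPKM. The immunoproteasome subunits differed widely from one another: PSMB8 stood at 30.7 ± 0.332 RPKM, close to the 31.0 ± 0.948 RPKM of PSMB5, the subunit it replaces. PSMB9 stood at 6.07 ± 0.495 RPKM and PSMB10 at 1.23 ± 0.509 RPKM (SD, n = 2 each).

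**Figure D1:**
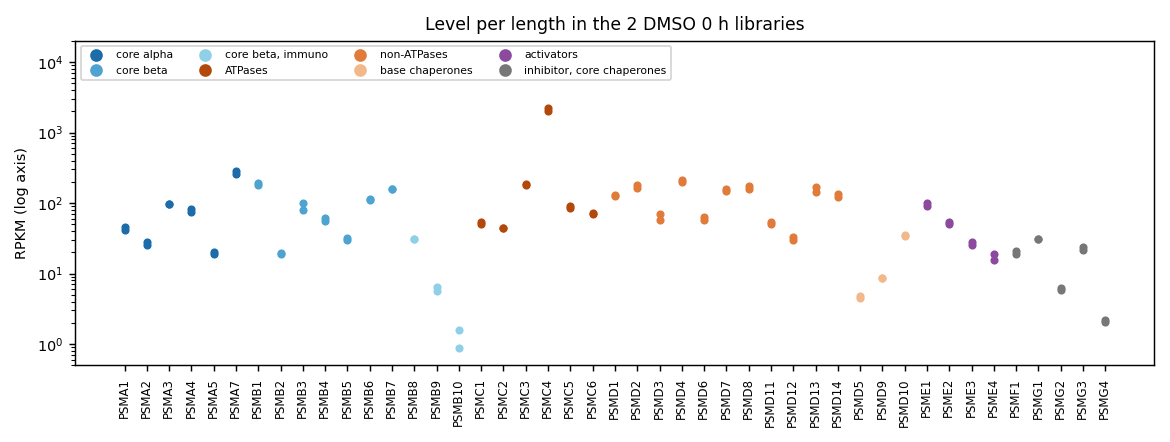
Level of each tested member in the 2 DMSO 0 h libraries, as RPKM on a log axis, 1 point per library, ordered and coloured by role (PSMA1 by its abundant identifier). PSMC4 stands at 2097 RPKM, above every other member, and PSMB10 at 1.23 RPKM is the lowest of the core subunits shown.

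After 12 h of PA, 6 of 7 constitutive beta-ring transcripts, 2 of 3 immunoproteasome transcripts, PSME1 and part of the regulatory particle were higher than with DMSO, while several alpha-ring, lid and assembly transcripts were lower. By edgeR's quasi-likelihood test (Benjamini-Hochberg adjusted p under 0.05 over all genes), 20 of 46 members rose (43.5%), 6 fell and 20 did not pass. Over all genes tested, 24.4% were higher and 24.1% lower, 48.5% in all. At 24 h, 18 members rose (39.1%), 5 fell and 23 did not pass, against 27.2% of all genes higher and 27.5% lower, 54.6% in all. The members' share of rises thus lay above that of all genes and their share of falls (13% and 10.9%) below it; the share called in total, 56.5% and 50%, lay near it. Median log2 changes of the members were 0.25 at 12 h and 0.22 at 24 h, beside 0.01 and -0.01 for all genes. In these bulk samples, less RNA per cell and fewer cells with it cannot be told apart.

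The balance of rises and falls depended on the scale. On the authors' RPKM, which carries no TMM factor, limma on log2(RPKM + 1) gave 15 members higher and 10 lower at 12 h (20.1% and 28.1% of all genes), and 9 higher and 13 lower at 24 h (17.6% and 36.4%), where the member median turned to -0.09. Gene by gene, the RPKM log2 change less the TMM one had a median over all genes of -0.13 at 12 h and -0.28 at 24 h. The all-gene median itself was 0.01 and -0.01 on the TMM scale and -0.03 and -0.10 on the RPKM scale. Among genes with an RPKM of at least 1 in 2 libraries, the member median was 0.11 at 12 h and -0.10 at 24 h, beside -0.08 and -0.24 for all genes. The share of all called genes that were higher was 41.6% and 32.6% on the RPKM scale, and 50.2% and 49.7% on the TMM scale. Members called higher on the TMM scale, on the RPKM scale and after a correction for GC content and length at both times numbered 8: PSME1, PSMB3, PSMB5, PSMC4, PSMD2, PSMD8, PSMD9 and PSMD13. All except PSMB3 also passed at both times when any 1 of the 4 libraries of the comparison was left out.

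Single libraries weighed on the other calls. They weighed on all genes too: calls over all genes were fewer or more in the same cases as those of the members. The counts below are therefore not particular to the members. Without PA 12 h replicate 1, 12 of the 26 calls at 12 h remained (adjusted p of those lost 0.064 to 0.299). Leaving out DMSO 12 h replicate 1 kept 14 of them (0.0576 to 0.248), and leaving out its partner, replicate 2, kept 16 (0.0503 to 0.164). Without PA 12 h replicate 2 all 26 remained and the total was 32. The 2 PA 12 h libraries differed most among replicates, with a median absolute difference of 0.35 log2 over the members, against 0.07 to 0.21 in the other groups. Calls at 24 h numbered 23, of which 15 remained when PA 24 h replicate 2 was left out and 20 when replicate 1 was. Of the DMSO 24 h libraries, leaving out replicate 1 kept 16 and replicate 2 kept 17 (adjusted p of those lost 0.0503 to 0.219). At 12 h the calls of PSMB1, PSMB4, PSMB7, PSMD1, PSMD3, PSMD4 and PSMD14 passed in only 1 of the 4 cases, and at 24 h those of PSMB10, PSMD5 and PSMD14; PSMA7 and PSMF1 passed in none at 24 h. Calls that held in all 4 cases numbered 11 at 12 h (PSMB5, PSMB6, PSMB8, PSMC3, PSMC4, PSMD2, PSMD8, PSMD9, PSMD12, PSMD13 and PSME1) and 13 at 24 h, where PSMB1, PSMB3 and PSMD4 came in and PSMC3 dropped out.

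**Figure D2:**
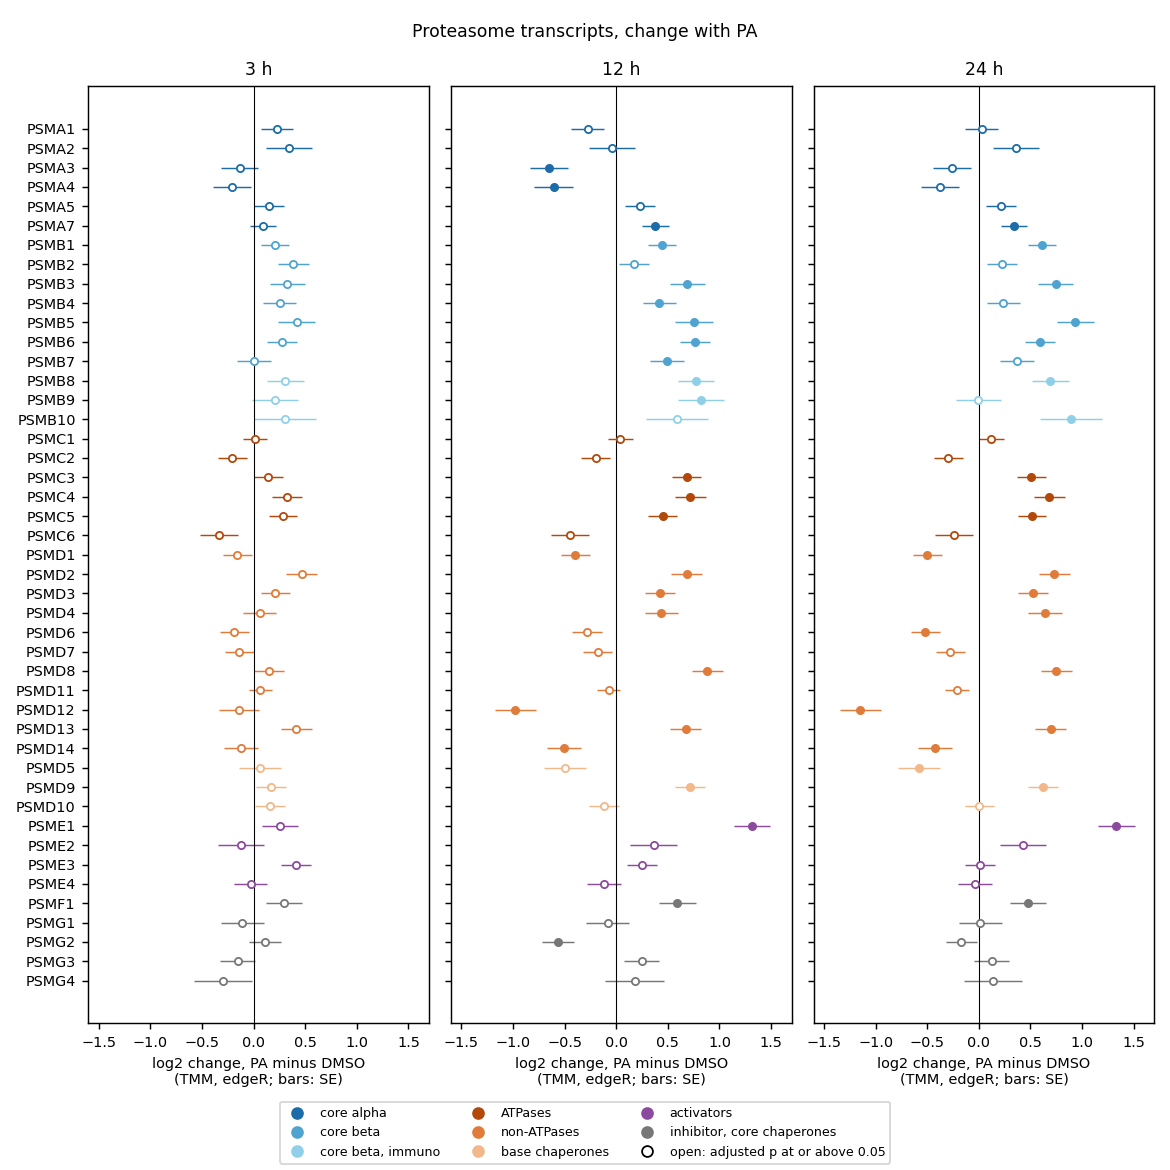
Log2 change with PA against DMSO (x axis; points, edgeR estimate; bars, SE; TMM scale) for each tested member at 3, 12 and 24 h, coloured by role; filled points passed an adjusted p of 0.05 (PSMA1 by its abundant identifier). No member passed at 3 h, 20 rose and 6 fell at 12 h, and 18 rose and 5 fell at 24 h; on the RPKM scale 13 were lower and 9 higher at 24 h.

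The constitutive beta ring rose most evenly on the TMM scale: 6 of its 7 transcripts passed at 12 h and 4 at 24 h, none fell, and the medians were 0.49 and 0.59 log2. On the RPKM scale 4 and 2 of the 7 passed, all higher. PSMB5, the chymotrypsin-like subunit that proteasome inhibitor drugs bind, is encoded at chr14:23016543-23035230. It stood at 46.7 and 50.2 CPM in DMSO at 0 h, 45.6 and 45.9 at 3 h, 37.1 and 39.4 at 12 h, then 49.0 and 48.4 at 24 h. With PA it stood at 66.8 and 55.4 CPM at 3 h, 76.1 and 52.9 at 12 h, then 80.2 and 105.8 at 24 h. Every PA library was above every DMSO library, and the groups did not overlap. The log2 change was 0.75 ± 0.18 at 12 h (SE, edgeR adjusted p = 0.00427) and 0.93 ± 0.18 at 24 h (adjusted p = 0.000793).

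PSMB6, the caspase-like subunit, stood at 85.7 and 102 CPM with DMSO and 181 and 138 CPM with PA at 12 h. Its log2 change was 0.76 ± 0.15 at 12 h (edgeR adjusted p = 0.00124) and 0.59 ± 0.15 at 24 h (0.00423). After GC and length correction the 24 h value was 0.15 and did not pass. PSMB7, the trypsin-like subunit, rose by 0.49 ± 0.17 at 12 h (0.0249), a call that ended without either DMSO 12 h library or PA 12 h replicate 1 (adjusted p up to 0.172). Its 24 h value was 0.37 ± 0.16 (0.0737). Among the subunits without a cutting site, PSMB3 rose at both times (0.69 ± 0.17 and 0.74 ± 0.17, adjusted p 0.00539 and 0.0026), as did PSMB1 (0.45 and 0.61). PSMB3 missed the threshold at 12 h without DMSO 12 h replicate 1 or PA 12 h replicate 1 (adjusted p up to 0.064). PSMB4 passed at 12 h only (0.42 ± 0.16, 0.0437), and PSMB2 passed at no time in this fit. After GC and length correction PSMB2 was called higher at 12 h.

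Most alpha-ring transcripts did not pass the test. The 7 tested entries include both PSMA1 identifiers, and the sparse one held the lowest 12 h value, -1.53. Of these entries 1 rose and 2 fell at 12 h, with a median of -0.28. At 24 h 1 rose and none fell, with a median of 0.03. Medians without the sparse entry were not worked out. The sign of the median depended on the fit: it was 0.06 at 12 h and 0.27 at 24 h after GC and length correction, and -0.17 and -0.11 on the RPKM scale. PSMA7, which lies next to the gate of the core, stood at 326 and 395 CPM with DMSO and 503 and 435 CPM with PA at 12 h, and rose by 0.38 ± 0.13 (edgeR adjusted p = 0.0259). At 24 h it rose by 0.34 ± 0.13 (0.0376), a call that ended without any 1 of the 4 libraries (adjusted p up to 0.146). After GC and length correction its values were 0.06 and 0.00. PSMA3 stood at 88.9 and 107 CPM with DMSO and 54.7 and 70.0 CPM with PA at 12 h, so both PA libraries were below both DMSO libraries. It fell by 0.65 ± 0.18 (edgeR adjusted p = 0.0102). PSMA4 fell by 0.61 ± 0.19 (0.0159). Both falls were lost without DMSO 12 h replicate 2 or PA 12 h replicate 1 (adjusted p up to 0.12), and after GC and length correction the values were -0.05 and 0.01. At 24 h PSMA3 read -0.26 and PSMA4 -0.37, short of the threshold. The abundant PSMA1 entry, PSMA2 and PSMA5 passed at no time in this fit. With GC and length corrected, PSMA5 was called higher at both times (1.33 and 1.22, more than PSME1 in that fit), and PSMA1 (0.59) and PSMA2 (0.81) at 24 h. On the RPKM scale PSMA1 was called lower at 12 h (-0.40). The sparse PSMA1 entry was under 0.6 CPM throughout, and its reads cannot be told apart from those of the overlapping entry. GENCODE 29, which gave GC content and length, lists the abundant PSMA1 identifier and the PSMA2 identifier under other gene names. The PSMA2 identifier overlaps a separate gene called PSMA2 there on the same strand, so its reads may be shared.

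Of the 3 expressed immunoproteasome subunits, PSMB8 and PSMB9 rose at 12 h and PSMB8 and PSMB10 at 24 h. PSMB8 stood at 44.1 and 52.0 CPM with DMSO and 95.5 and 68.5 CPM with PA at 12 h, and at 54.2 and 58.4 against 89.96 and 92.3 CPM at 24 h. The groups did not overlap at either time. Its log2 change was 0.77 ± 0.18 (edgeR adjusted p = 0.00319) and 0.69 ± 0.18 (0.00471), but 0.32 (called) and 0.23 (not called) after GC and length correction. PSMB9 rose by 0.82 ± 0.22 at 12 h only (0.00866): it stood at 4.97 and 6.30 CPM with DMSO and 11.7 and 8.25 CPM with PA. That call ended without DMSO 12 h replicate 1 or PA 12 h replicate 1 (adjusted p up to 0.0941), and at 24 h the value was 0.00 ± 0.22. PSMB10, at 2.06 and 2.24 against 3.88 and 4.11 CPM, rose by 0.90 ± 0.30 at 24 h (0.021), and did not pass at 12 h (0.59, edgeR adjusted p = 0.124). It missed the threshold without either DMSO 24 h library or PA 24 h replicate 2 (up to 0.107), and after GC and length correction the value was 0.16. PSMB8 and PSMB9 overlap each other on opposite strands, and PSMB9 also overlaps TAP1, which was not analysed here. No source used here gives the strand setting of the counts. PSMB10 overlaps another protein-coding gene, AC040162.1, by 1516 bases on the same strand, so its low counts may be shared with it. The ratio of each immunoproteasome subunit to its constitutive counterpart was read per length, without a test. The RPKM ratio of PSMB8 to PSMB5 was 0.83 to 1.24 over the DMSO libraries and 0.813 to 1.23 over the PA libraries, so the ranges overlapped. That of PSMB9 to PSMB6 was 0.0374 and 0.0445 with PA at 24 h, below all 8 DMSO libraries (0.0458 to 0.0634). That of PSMB10 to PSMB7 was 0.0169 and 0.0161 with PA at 24 h against 0.0103 and 0.0126 with DMSO, and reached 0.0165 with DMSO at 12 h.

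Of the 6 ATPases, PSMC3, PSMC4 and PSMC5 rose at both times and none fell. PSMC4 (chr19:39971005-39981441) stood at 3343 and 3806 CPM in DMSO at 0 h, 3452 and 3188 at 3 h, 2854 and 3137 at 12 h, then 3064 and 3379 at 24 h. With PA it stood at 4316 and 3986 CPM at 3 h, 5715 and 4136 at 12 h, then 5019 and 5325 at 24 h. The PA libraries thus held more than any DMSO library at every time. The log2 change was 0.72 ± 0.15 at 12 h (edgeR adjusted p = 0.00172) and 0.68 ± 0.15 at 24 h (0.0017), and 0.27 and 0.23, still called, after GC and length correction. PSMC3 rose by 0.68 ± 0.14 at 12 h (0.00168) and 0.51 ± 0.14 at 24 h (0.00775). After GC and length correction its values were 0.19 and -0.01, neither called. PSMC5, which overlaps FTSJ3 on the opposite strand, rose by 0.45 and 0.51. PSMC1, PSMC2 and PSMC6 passed at no time in this fit, and the other scales gave opposite calls. Correction for GC and length gave PSMC6 (0.49 and 0.62) and PSMC2 (0.66 and 0.52) a call higher at both times and PSMC1 one at 24 h (0.26). On the RPKM scale PSMC6 was called lower at both times (-0.61 and -0.55) and PSMC2 at 24 h (-0.60).

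The non-ATPase subunits of base and lid held rises and falls of similar size. Of 11 transcripts, 5 rose and 3 fell at 12 h (45.5% and 27.3%, beside 24.4% and 24.1% of all genes). At 24 h 5 rose and 4 fell (45.5% and 36.4%, beside 27.2% and 27.5% of all genes). On the RPKM scale 3 rose and 4 fell at 12 h (20.1% and 28.1% of all genes). There 3 rose and 6 fell at 24 h (17.6% and 36.4% of all genes). The 5 that rose were the same at both times: PSMD2, PSMD3, PSMD4, PSMD8 and PSMD13. PSMD8, a lid subunit at chr19:38374536-38383824, stood at 299 and 362 CPM with DMSO and 694 and 524 CPM with PA at 12 h, and at 429.7 and 430.5 against 744 and 703 CPM at 24 h. Its log2 change was 0.88 ± 0.15 (edgeR adjusted p = 0.00047) and 0.75 ± 0.15 (0.000843). PA 12 h replicate 2, at 524 CPM, was above every DMSO library, though the DMSO libraries at 0 h reached 513 CPM.

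PSMD2, the base scaffold on which ubiquitin shuttles dock, stood at 620 and 684 CPM with DMSO and 1214 and 881 CPM with PA at 12 h. Its log2 change was 0.68 ± 0.15 (edgeR adjusted p = 0.00245) and 0.73 ± 0.15 at 24 h (0.00116). PSMD13, a lid scaffold subunit, rose by 0.67 and 0.69. PSMD4, the ubiquitin receptor of the base, rose by 0.44 ± 0.16 at 12 h (0.0384) and 0.64 ± 0.16 at 24 h (0.00466). The 12 h call of PSMD4 ended without either DMSO 12 h library or PA 12 h replicate 1 (adjusted p up to 0.284). PSMD3 rose by 0.42 and 0.52, and read -0.18 and -0.11 after GC and length correction.

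The deepest fall among the called members was that of PSMD12, a lid scaffold subunit at chr17:67337916-67366627. In DMSO it stood at 155.5 and 143 CPM at 0 h, 127 and 155 at 3 h, 165 and 169 at 12 h, then 154 and 169 at 24 h. With PA it stood at 116 and 139.6 CPM at 3 h, 64.8 and 105 at 12 h, then 80.7 and 65.2 at 24 h. At 12 and 24 h every PA library was below every DMSO library. The log2 change was -0.98 ± 0.20 at 12 h (edgeR adjusted p = 0.00164) and -1.15 ± 0.20 at 24 h (0.0004), and both calls held without any 1 library. The transcript is poor in GC (37.9%), and after GC and length correction the values were 0.02 and -0.17, neither called.

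PSMD14, the deubiquitinase that strips ubiquitin from the substrate, stood at 211 and 222 CPM with DMSO and 122 and 182 CPM with PA at 12 h. It fell by 0.51 ± 0.16 (edgeR adjusted p = 0.0197) and at 24 h by 0.42 ± 0.16 (0.0391). The correction left -0.37 at 12 h, still called, and -0.25 at 24 h, not called. Each of these calls ended in 3 of 4 cases when 1 library was left out, all except PA 12 h replicate 2 and PA 24 h replicate 1 (adjusted p up to 0.21 and 0.218). PSMD1, the other large base scaffold, read -0.39 ± 0.14 (0.0332) and -0.50 ± 0.14 (0.00889). Neither call of PSMD1 held after GC and length correction. PSMD6 fell at 24 h by 0.52 ± 0.14 (0.00785) and was called lower on all 3 scales there; its call ended without PA 24 h replicate 2 (0.0978). PSMD11, a lid subunit linked to high proteasome activity in stem cells, passed at no time in this fit (-0.07 and -0.21), and neither did PSMD7. On the RPKM scale both were among the 6 called lower at 24 h. PSMD11 stood at a mean of 42.9 RPKM with DMSO and 29.6 with PA there, and PSMD7 at 161.2 and 106.5.

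Of the 3 PSMD genes that encode base assembly chaperones, PSMD9 rose and PSMD5 fell. PSMD9 stood at 20.8 and 22.9 CPM with DMSO and 40.1 and 31.8 CPM with PA at 12 h, a log2 change of 0.72 ± 0.15 (edgeR adjusted p = 0.00163), and 0.62 ± 0.15 at 24 h (0.00293). PSMD5 read -0.50 ± 0.20 at 12 h (0.0573) and fell by 0.58 ± 0.20 at 24 h (0.0274), a call that ended without either DMSO 24 h library or PA 24 h replicate 1 (up to 0.211) and read 0.10 after GC and length correction. PSMD10, also known as gankyrin, did not pass in this fit. On the RPKM scale it was called lower at 24 h, and after GC and length correction it was called higher at 12 h.

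Among the alternative caps, PSME1 rose and its partner did not pass. PSME1 and PSME2 form a mixed ring that opens the core without ATP and is best known from antigen processing. PSME1 (chr14:24136158-24138967) stood at 116 and 134.5 CPM in DMSO at 0 h, 121 and 111 at 3 h, 91.0 and 103 at 12 h, then 139 and 141 at 24 h. With PA it stood at 141 and 137 CPM at 3 h, 294 and 189 at 12 h, then 370.5 and 334 at 24 h. At 12 and 24 h every PA library was above every DMSO library. The log2 change was 1.31 ± 0.18 at 12 h (2.49-fold, edgeR adjusted p = 0.000115) and 1.33 ± 0.18 at 24 h (2.52-fold, 5.99e-05), the largest of any member in both comparisons. Both calls held without any 1 library (0.97 to 1.60 at 12 h), on the RPKM scale (1.14 and 1.004) and after GC and length correction (0.97 and 0.998).

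PSME2 lies next to PSME1 on chromosome 14 (chr14:24143362-24147570). It stood at 60.9 and 69.9 CPM with DMSO and 88.7 and 79.5 CPM with PA at 12 h, and at 88.5 and 80.7 against 91.1 and 137 CPM at 24 h. Its log2 changes of 0.36 ± 0.22 and 0.43 ± 0.22 did not pass (edgeR adjusted p = 0.197 and 0.119), and read -0.19 and -0.18 after GC and length correction. The RPKM ratio of PSME1 to PSME2 was 1.46 to 2.28 over the DMSO libraries. With PA it was 2.46 and 2.16 at 3 h, 4.07 and 2.91 at 12 h, then 4.99 and 2.99 at 24 h, so every PA library of 12 and 24 h was above all DMSO libraries. The difference between the 2 genes was not tested. PSME3, a nuclear cap, and PSME4, a cap linked to histone turnover, passed at no time: PSME3 read 0.41, 0.25 and 0.01 at 3, 12 and 24 h, and PSME4 read -0.03, -0.12 and -0.04. After GC and length correction PSME4 was called higher at 12 and 24 h (0.64 and 0.74).

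Of the inhibitor and core assembly genes, PSMF1 rose and PSMG2 fell. PSMF1, which encodes an inhibitor of the core, stood at 73.8 and 89.99 CPM with DMSO and 146 and 101.5 CPM with PA at 12 h. It rose by 0.59 ± 0.18 (edgeR adjusted p = 0.0133) and by 0.47 ± 0.18 at 24 h (0.0341), and lost the 24 h call without any 1 of the 4 libraries (up to 0.219). The 12 h call was lost without DMSO 12 h replicate 1 or PA 12 h replicate 1 (up to 0.16). PSMG2, an alpha-ring assembly chaperone, stood at 12.0 and 13.4 CPM with DMSO and 8.53 and 8.72 CPM with PA at 12 h. It fell by 0.56 ± 0.16 (0.00935) and was lower on all 3 scales; without DMSO 12 h replicate 2 the adjusted p was 0.0679. At 24 h PSMG2 read -0.17. PSMG1, its partner, read -0.08 and 0.01 and did not pass, nor did PSMG3 and PSMG4.

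**Figure D3:**
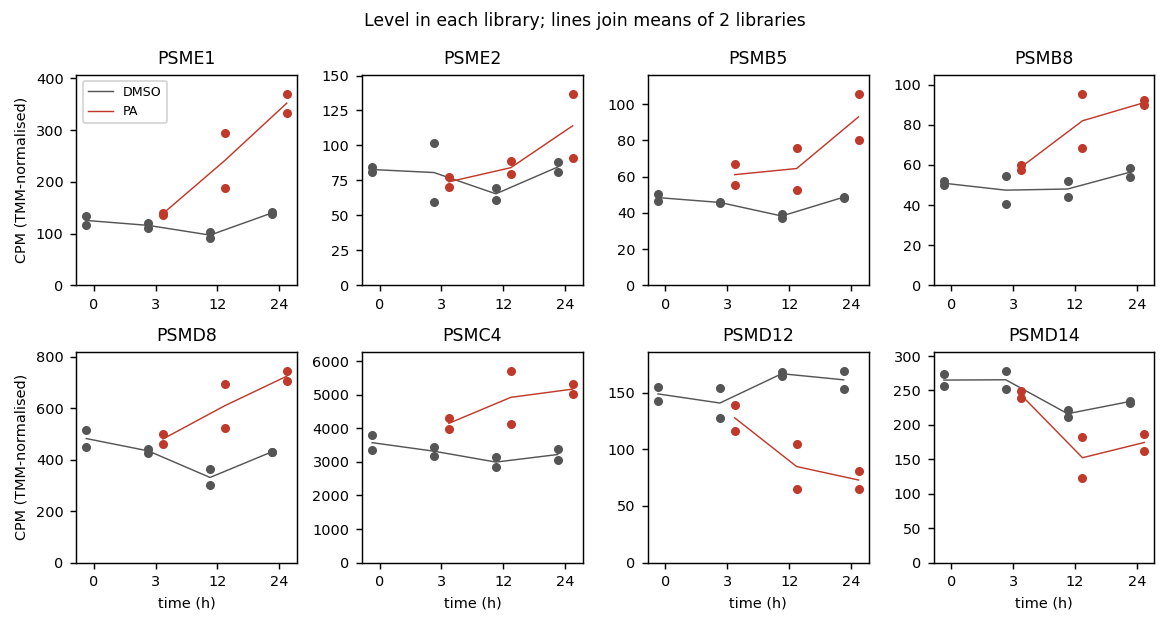
TMM-normalised CPM of 8 members in each library (points; y axis from 0) by time, DMSO in grey and PA in red, with lines through the means of 2 libraries. PSME1 reaches 370.5 and 334 CPM with PA at 24 h against 139 and 141 with DMSO, PSME2 reads 91.1 and 137 CPM against 88.5 and 80.7, and PSMD12 falls to 80.7 and 65.2 CPM.

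The core and regulatory parts were compared as the median log2 change of each, as a description. The core median was 0.22, 0.42 and 0.34 at 3, 12 and 24 h and the regulatory median 0.06, 0.14 and 0.07, a difference of 0.16, 0.27 and 0.27. Of 17 core entries, 9 rose and 2 fell at 12 h and 7 rose and none fell at 24 h. Of 24 regulatory genes, 10 rose and 3 fell at 12 h and 10 rose and 5 fell at 24 h. The share of rises was 52.9% and 41.7% at 12 h and 41.2% and 41.7% at 24 h, beside 24.4% and 27.2% of all genes. Every fall at 24 h in this fit was regulatory, 20.8% of that part beside 27.5% of all genes. That did not hold in the other fits. On the RPKM scale 2 core, 10 regulatory and 1 inhibitor or assembly gene were lower at 24 h. After GC and length correction these counts were 0, 1 and 2. On the RPKM scale the medians at 24 h were 0.02 for the core and -0.25 for the regulatory part. After GC and length correction they were 0.32 and 0.19 at 12 h and 0.27 and 0.25 at 24 h, so that the difference fell to 0.14 and 0.02.

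By library, the median over core entries of log2 CPM, less each entry's mean over the 14 libraries, was -0.39 and -0.18 with DMSO and 0.18 and -0.05 with PA at 12 h. At 24 h it was -0.04 and 0.01 with DMSO and 0.31 and 0.43 with PA. The same measure for the regulatory genes was -0.29 and -0.16 with DMSO and -0.01 and -0.04 with PA at 12 h, and -0.05 and -0.03 against 0.06 and 0.11 at 24 h. Within each of these times both parts were higher in each PA library than in each DMSO library, with a smaller gap in the regulatory part. The DMSO 12 h libraries had the lowest values of the regulatory part.

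**Figure D4:**
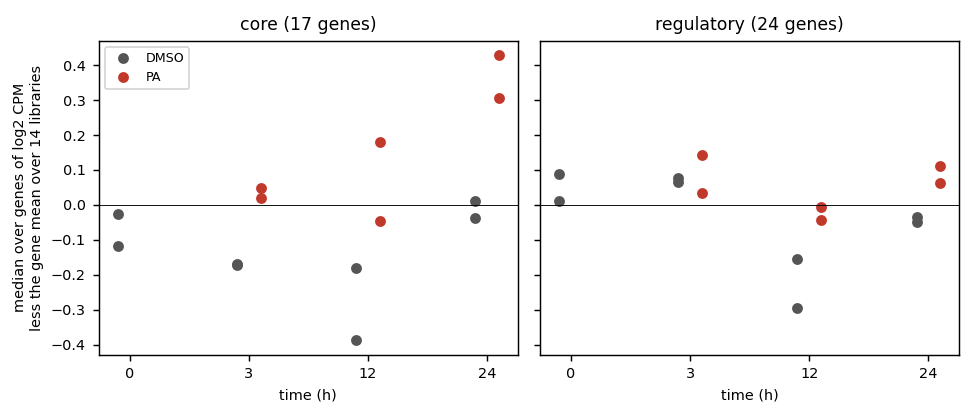
Median over the 17 core entries (left) and the 24 regulatory genes (right) of log2 CPM less the entry's mean over 14 libraries, 1 point per library, by time; DMSO grey, PA red, TMM scale. Core medians at 24 h are 0.31 and 0.43 with PA and -0.04 and 0.01 with DMSO; the PA minus DMSO median of the regulatory genes at 24 h turns negative (-0.25) on the RPKM scale.

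Calls were made at 12 and 24 h and not at 3 h, but the difference between 12 and 3 h was itself called for PSME1 alone. At 3 h, 0 members passed by edgeR (1.72% of all genes did), 0 by DESeq2 and 0 by limma on RPKM, while 6 had an unadjusted p under 0.05; the member median was 0.14. From 12 to 24 h, 17 members stayed higher and PSMD12, PSMD14 and PSMD1 stayed lower. Another 6 were called at 12 h only and 3 at 24 h only, and 41 of 46 had the same sign. The shares of all genes that did so were not worked out, so these counts cannot be read as particular to the members. On the RPKM scale the member median went from 0.10 at 12 h to -0.09 at 24 h. The 12 and 24 h effects come from different libraries. A test of the difference between the effects at 24 and 12 h called 0 members (0.422% of all genes; 1 at an unadjusted p under 0.05, 0 by DESeq2). The difference between 12 and 3 h called PSME1 alone, by 1.05 ± 0.25 (edgeR adjusted p = 0.039; 2.79% of all genes), with 8 members at an unadjusted p under 0.05, 3 by DESeq2 and 0 by limma on RPKM. Leaving out a library gave 0 calls in each case except without PA 12 h replicate 2 (13 calls) and without DMSO 3 h replicate 2 (1 call).

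Within DMSO, members stood lower at 12 h than at 0 h. At 12 h against 0 h, 38 of 46 members were lower in DMSO, with a median of -0.25 beside 0.00 for all genes. PSMC1, an ATPase, was the 1 call, and fell by 0.58 ± 0.12 (edgeR adjusted p = 0.0329; 1.46% of all genes), with 16 members at an unadjusted p under 0.05 and 3 calls by DESeq2. No call remained when any 1 of the 4 libraries was left out. Fitted on its own 4 libraries, this comparison called 20 members. The share of all genes called in that fit was not worked out, so the 20 cannot be set beside it. The PA comparison at 12 h fitted likewise called 5 members higher and 1 lower, among 3671 genes called, 1954 of them higher. At 3 h there were 0 calls (0% of all genes; 0 unadjusted, 0 by DESeq2) and at 24 h 0 calls (2.46% of all genes; 5 unadjusted, 1 by DESeq2). The PA comparison at 12 h is thus made against DMSO libraries in which most members stood lower than at 0 h. PSMB7, called higher at 12 h, stood at 175 and 149 CPM with PA there and 161 and 169 CPM in DMSO at 0 h. The PA 12 h and DMSO 0 h libraries overlapped likewise for PSMA7, PSMC3, PSMC5 and PSMD4. They did not overlap for others, such as PSMB5, PSMC4 and PSME1.

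The direction of a member's change followed the GC content of its transcript. Over the 46 members Spearman's rho between log2 change and GC content was 0.39 at 3 h, 0.74 at 12 h and 0.71 at 24 h, across genes that share libraries and without a test. Over 15071 genes it was 0.48, 0.64 and 0.58. Members that rose at 12 h had a median GC content of 53.2% and those that fell 43.2%, and at 24 h these medians were 53.4% and 44.2%. After each library's trend on GC content and length was removed, 19 members were higher and 3 lower at 12 h (22.5% and 17.6% of all genes), of which 13 and 2 were called the same way before. At 24 h 21 were higher and 3 lower (27% and 22.4% of all genes), of which 12 and 1 were shared. The members' rho after this correction was -0.20 at 12 h and -0.31 at 24 h. The sign differed after correction for 14 members at 12 h and 12 at 24 h. Of these, PSMC2, PSMC6 and PSME4 at both times and PSMD10 at 12 h (-0.12 before, 0.45 after) were then called higher, and PSMG3 lower at both times (0.25 and 0.12 before, -0.38 and -0.55 after). These were singled out after their values were seen. The falls of PSMD12, PSMD1, PSMA3, PSMA4 and PSMD5 lost their calls. Those of PSMD14 at 12 h and PSMD6 at 24 h (-0.38) kept them. PSME1, PSMB5, PSMD13, PSMD9, PSMC4, PSMD8 and PSMD2 were called on either fit. The part of GC content and length in the results was otherwise not tested.

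**Figure D5:**
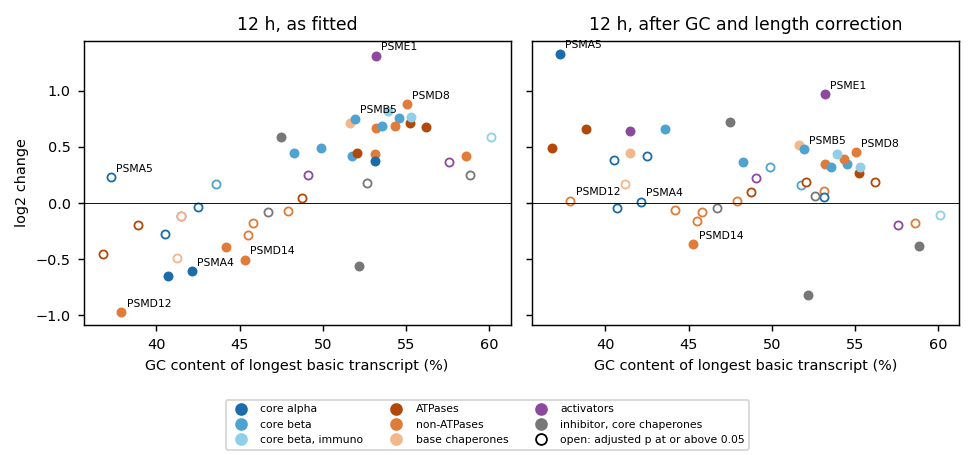
Log2 change at 12 h (y axis) of each tested member against the GC content of its longest basic GENCODE 29 transcript (x axis, percent), before (left) and after (right) correction for GC content and length; filled points passed an adjusted p of 0.05 and colours give the role. Spearman's rho is 0.74 on the left and -0.20 on the right; PSMD12 moves from -0.98 to 0.02 and PSME1 from 1.31 to 0.97.

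Genes that work with the proteasome moved in both directions, as did all genes tested (24.4% higher and 24.1% lower at 12 h, 27.2% and 27.5% at 24 h). Of 12 other subunits, assembly and bound factors, 1 rose and 4 fell at 12 h and 2 rose and 6 fell at 24 h. The ubiquitin receptor ADRM1 rose by 0.82 and 0.75, and UCHL5, the deubiquitinase it recruits, fell by 1.51 and 1.68. UBLCP1, a phosphatase bound to the proteasome, fell by 1.30 and 1.15, and the small lid subunit SHFM1 rose by 1.1 at 24 h. In DMSO SHFM1 stood at 72.3 and 90.5 CPM at 0 h and 50.5 and 46.4 at 24 h. With PA at 24 h it stood at 116.5 and 91.4 CPM. POMP, the core assembly factor, did not pass (-0.20 and -0.05). ADRM1 read -0.10 at 24 h after GC and length correction, and POMP 0.94 and 0.92. Of 11 genes of NRF1 and NRF2 control, 5 rose and 4 fell at 12 h and 6 rose and 4 fell at 24 h. NFE2L1 rose by 0.67 and 1.03. At 12 h MAFF and MAFK, small partner proteins of NRF factors, rose by 0.84 and 0.85, and at 24 h by 2.20 and 1.76. In DMSO MAFF stood at 44.1 and 55.6 CPM at 0 h and 12.2 and 15.4 at 24 h. With PA at 24 h it stood at 60.1 and 66.4 CPM. The MAFF change at 24 h is thus read against DMSO libraries that stood far lower than at 0 h. DDI2, the protease that activates NRF1, fell by 0.94 and 1.24. The other falls of this list at both times were NFE2L2 (NRF2), NGLY1 and SEL1L. NFE2L2 stood at 120 and 118 CPM with DMSO and 42.6 and 74.7 CPM with PA at 12 h. At 24 h it stood at 112 and 107 CPM with DMSO and 70.4 and 51.1 CPM with PA. Of 5 ubiquitin and E1 genes, 2 rose and 1 fell at 12 h and 3 rose and 1 fell at 24 h. UBA6, an E1 enzyme that activates ubiquitin, fell by 1.60 and 1.35. Ubiquitin genes share near-identical sequence, so their reads may be split between them.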

How the data were processed

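Libraries were read as 151-nt pairs, per the labels' protocols. The deposited counts are whole reads per gene; the deposited RPKM values (reads per length and library total) were made by the authors. TopHat2, edgeR and GRCh38 are named in the submitters' processing notes, without versions; no source used here gives the counting tool, annotation, strand setting or gene lengths. Of 46 tested members, 28 overlap another GENCODE 29 gene.

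Counts were fitted with edgeR 4.0.16 in R 4.3.3: TMM, filterByExpr, quasi-likelihood tests over 15181 genes, 1 mean per group, all 14 libraries, 7 residual degrees of freedom, Benjamini-Hochberg threshold 0.05, two-sided, SE from the F statistic. Alternatives were DESeq2 1.42.0 and its size factors, a filter of 5 CPM in 2 libraries or none, a replicate block, 4 libraries alone, limma 3.58.1 on log2(RPKM + 1) or log2(RPKM + 0.1), an RPKM filter of 1, each library left out, and offsets from splines (5 degrees of freedom) of GC content and length of the longest basic GENCODE 29 transcript (15071 genes, 99.3%). An RPKM fold change on this scale understates low genes.

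Named genes were the 8 largest rises and falls past the threshold, 18 fixed members (such as PSMB5, PSME1 and PSMD12), and, of other lists, up to 3 with the smallest p, with NFE2L1, ADRM1 and POMP (TAP1, also in the rule, was not analysed here); other called members are named too. NFE2L2, NGLY1 and SEL1L are named beyond this rule, as the other falls of their list. Members and lists were chosen with earlier results of these data known. A gene each of the ubiquitin and class I lists is not reported here.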

Additional observations from a re-analysis of the deposited data

Results flagged for a closer look

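The effect of PA on PSME1 differed between times by a test of the difference itself: it was 1.05 log2 larger at 12 h than at 3 h (SE 0.247, edgeR adjusted p = 0.039). The effects were 0.26 at 3 h and 1.31 at 12 h. Both PA libraries exceeded both DMSO libraries at each time. The call was lost in 6 of the 8 cases in which 1 library was left out.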

How the results depend on the processing

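Counts of members higher and lower at 12 h were 5 and 1 with only the libraries of the comparison, which leaves fewer degrees of freedom. That fit called 3671 genes in all. After GC and length correction 3 were lower at 12 h and 3 at 24 h. Members lower at 12 h numbered 10, 11 and 10 by limma on log2(RPKM + 1), log2(RPKM + 0.1) and with an RPKM filter; at 24 h 9, 8 and 9 were higher and 13 lower in each. At 3 h 1 was higher without a filter or with its own libraries. For the 12 minus 3 h difference, DESeq2 and no filter gave 3 calls, GC and length correction and the RPKM filter 2, and the other RPKM fits and the libraries of the comparison 0. For DMSO at 12 h, DESeq2 gave 3, no filter 4, the correction 3 and its own libraries 20. For DMSO at 24 h, DESeq2 and the correction gave 1 and its own libraries 7. Shares over all genes were not worked out for these DMSO alternatives. The core minus regulatory median was 0.0838, 0.136 and 0.0235 (3, 12 and 24 h) after the correction. Other causes were not tested.

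Leaving out 1 library gave 0 to 1 members higher at 3 h, 10 to 22 higher and 1 to 10 lower at 12 h, 13 to 17 higher and 2 to 5 lower at 24 h, 0 to 13 calls for 12 minus 3 h and 0 for the other differences. The core minus regulatory median ranged from 0.0534 to 0.18, 0.16 to 0.36 and 0.20 to 0.26.

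Libraries with the same replicate number showed no steady pairing: 2 of 21 group pairs had a residual correlation over 0.1 (range -0.22 to 0.24). With 2 libraries per group this check cannot exclude a shared culture or batch. With a replicate block, 18 members were higher and 6 lower at 12 h and 17 and 5 at 24 h, and the PSME1 difference and the DMSO 12 h call were lost (0 calls each). With block and correction, 3 were lower at 12 h and 3 at 24 h, 2 were called for 12 minus 3 h and 1 for DMSO at 24 h, and the medians differed by 0.08615, 0.136 and 0.02865.

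Of 46 members the sign differed under GC and length correction for 14 at 12 h and 12 at 24 h; PSMC2, PSMC6, PSMD10 and PSMG3, which the naming rule does not cover, were among those newly called. Among genes named by the rule and called in either fit, signs reversed under that correction, without and with the block, at 12 h for PSMD12 (0.0217, 0.0224), PSMA4 (0.0123, 0.0196), PSMD3 (-0.18, -0.18), PSME4 (0.64, 0.64), POMP (0.94, 0.94), RAD23B (0.18, 0.18) and ERAP1 (0.39, 0.39). At 24 h they reversed for PSMD5 (0.10, 0.10), PSMC3 (-0.0052, -0.005224), PSMD3 (-0.11, -0.11), PSME4 (0.74, 0.74), ADRM1 (-0.10, -0.10), POMP (0.92, 0.92), RAD23B (0.0275, 0.0272), ERAP1 (0.37, 0.37) and GPS1 (-0.35, -0.35). Of 2787 single-gene values under alternatives, 2439 kept the side of the threshold, 263 missed it and 53 newly passed. Another 32 reversed in sign with a call in either fit. Changes of sign without a call in either fit, such as that of PSME2 under the correction, were counted among the 2439. Depth limited only PSMA8, PSMB11 and the sparse PSMA1 entry.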

Other observations

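Other multi-subunit complexes and the class I peptide pathway were read beside the proteasome; of all genes, 24.4% were higher and 24.1% lower at 12 h, and 27.2% and 27.5% at 24 h. Of the 8 TRiC chaperonin genes, which encode a folding ring of related subunits, 2 rose and 3 fell at 12 h and 1 rose and 3 fell at 24 h. CCT7 rose by 0.64 and CCT6A fell by 0.62 at 12 h, and TCP1 fell by 0.89 at 24 h. Of 9 COP9 signalosome genes, a complex related to the proteasome lid, 2 rose and 1 fell at 12 h and 3 rose and 1 fell at 24 h. GPS1 rose by 0.88 at 12 h and COPS2 fell by 1.74.

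Of 5 tested class I and interferon genes, 1 rose and 1 fell at 12 h and 2 rose and 1 fell at 24 h. TAPBP, which helps load peptides, rose by 0.71 and 0.75, and B2M, the class I light chain, rose by 0.64 at 24 h. ERAP1, a peptide-trimming enzyme, fell by 0.53 and 0.52. TAP2 and ERAP2 were not analysed here. Of 10 ubiquitin shuttle and VCP cofactor genes, 4 rose and 3 fell at 12 h and 4 rose and 2 fell at 24 h. UBQLN4 rose by 0.75 and 0.73, and RAD23B fell by 0.39 and 0.58.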
